A study of Homo sapiens with 2 samples.

Results

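The HLA class I and peptide loading genes were examined in K562, an established BCR-ABL-positive cell line from human chronic myeloid leukaemia, on Affymetrix arrays of total RNA. Both cultures held an inducible short hairpin against BMI1, labelled shBmi1. BMI1 is a Polycomb repressive complex 1 subunit. One culture was incubated with doxycycline for 96 h, and the control culture received none, so each group was 1 sample on 1 array. The labels do not say whether the line was 1 clone, nor how long the control was kept. No culture received doxycycline without the hairpin, so an effect of the drug and an effect of BMI1 silencing cannot be told apart. Members were the probe sets whose platform annotation names HLA-B, HLA-C, HLA-E, HLA-F, HLA-G, B2M, TAP1, TAP2 or TAPBP. This rule found 16 of 33297 probe sets, which covered 7 of the 9 genes. HLA-E and HLA-G were not analysed here. Of the 16 probe sets, 10 carry 1 gene symbol and 6 carry a pair of symbols, and HLA class I genes are known to be close in sequence.

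HLA class I molecules show peptides from inside the cell to cytotoxic T cells and restrain natural killer (NK) cells. Their heavy chains, among them those of HLA-B and HLA-C and of the less variable HLA-E, HLA-F and HLA-G, pair with beta-2-microglobulin, the product of B2M. TAP1 and TAP2 form the transporter that carries peptides into the endoplasmic reticulum, and TAPBP encodes tapasin, which holds the empty heavy chain at that transporter. K562 is known for very low class I at its surface and is a standard target of NK cells. Interferon raises these genes in most cells through interferon regulatory factors and NLRC5, and Polycomb repressive complex 2 (PRC2) is known to hold them down in this line.

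Values are log2 expression values of each probe set, and differences are doxycycline minus no doxycycline. With 1 sample per group there is no replicate error for any value, no test was possible, and the number of arrays limits the precision. The scale used instead was the robust SD of differences among probe sets of similar level, which describes the spread between probe sets and not between cultures. In bulk RNA, more cells expressing a gene and more RNA per cell cannot be told apart. The BMI1 probe set, shared with a read-through transcript, stood at 10.00 with doxycycline and 10.84 without. Of 10 erythroid and megakaryocytic markers of K562, 9 had a probe set of their own, all above a floor of 6 on the log2 scale, and their summed log2 value was 91.1 with doxycycline and 93.0 without. All 9 were lower with doxycycline, where 48.8% of the 13471 genes past the floor were lower, with a median difference of -0.18. At least 1.2-fold lower were 3 of the 9, against 4.05% of all genes, and HBZ, the embryonic zeta globin gene, differed by -0.44 and by -0.65 at its other probe set. Of 22 markers of T, NK, B, monocytic, dendritic and fibroblast cells, 11 passed that floor. The summed log2 values of these with and without doxycycline were 23.2 and 23.1 for T and NK cells, 12.7 and 13.0 for B cells, 18.4 and 18.4 for monocytes and dendritic cells, and 22.3 and 22.3 for fibroblasts. No probe set has a value of 0 on this scale. The B cell marker MS4A1 lay under the floor in both, at 4.33 and 4.37. The T and NK cell marker CD7, the brightest of the 11, stood well above it, at 8.42 with doxycycline and 8.33 without. The part of these markers in the results below was not tested.

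Most of the class I and loading probe sets were slightly higher in the doxycycline sample, by less than 1.5-fold. Of the 16, 13 were higher and 3 were lower, where 49% of all 21214 probe sets with a gene symbol were higher and 49.2% lower. The median difference was 0.24, a 1.18-fold difference, and that of all probe sets with a symbol was 0. None reached 1.5-fold (0 higher and 0 lower of 16), which 0.467% of all probe sets with a symbol did upward and 0.387% downward. At 1.2-fold, 3 were higher and 0 lower, against 7.16% and 6.13% of all. The 16 are not independent, since several stand for 1 gene, and they hold 14 distinct pairs of values. Distinct pairs are not all separate readings either, as described below for HLA-F and TAP2. Grouped by their symbols they form 6 groups, of which 5 were higher in every probe set and 1, TAP2, was lower in every probe set.

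**Figure D1:**
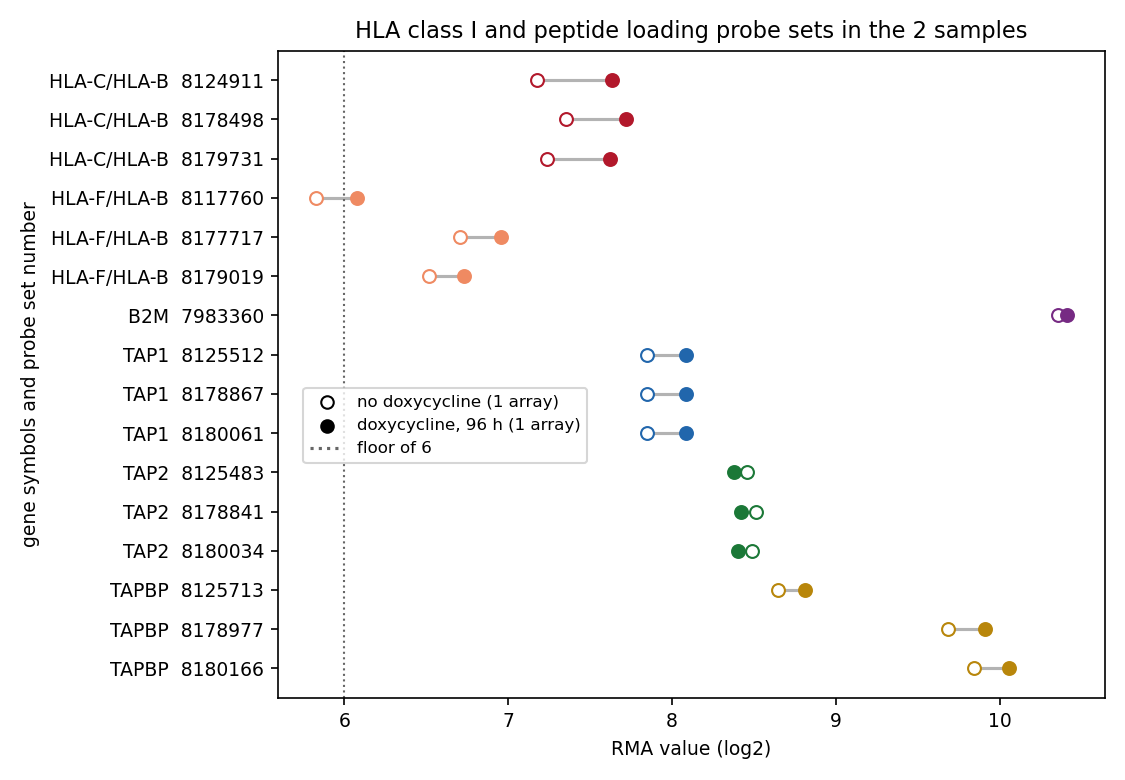
Log2 value of each of the 16 probe sets (rows) without doxycycline (open circles) and with doxycycline (filled circles), 1 array each; the dotted line marks the floor of 6. Filled circles lie to the right of open ones for every row except the 3 of TAP2, and levels of different probe sets are not comparable with each other.

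The classical heavy chain genes HLA-B and HLA-C showed the widest differences of the group. They share 3 probe sets annotated to both, so the 2 genes cannot be separated. The first (8124911) read 7.64 with doxycycline against 7.18 in the control, which differ by 0.46 or 1.38-fold. The next (8178498) stood at 7.72 and 7.35, a difference of 0.36. The last (8179731) stood at 7.62 and 7.24, a difference of 0.38. Within each probe set the doxycycline value was the higher, and the robust SD among the 1061 probe sets of similar level was 0.16. Of those 1061, 1.51%, 3.96% and 2.92% were at least as high. The annotation lists a RefSeq transcript of HLA-B for all 3 and of HLA-C for the last alone.

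HLA-F, which encodes a class I heavy chain found mostly inside cells, was measured by 3 probe sets annotated to HLA-F and HLA-B. All 3 lay within 1 log2 unit of the floor of 6. The first (8117760) stood at 6.08 with doxycycline and 5.83 without, so without doxycycline it lay under the floor. The other two stood at 6.95 and 6.70 (8177717) and at 6.73 and 6.52 (8179019). The differences were 0.25, 0.25 and 0.22, with robust SDs among probe sets of similar level of 0.21, 0.17 and 0.18. Those of 8117760 and 8177717 were nearly identical, 0.249087 and 0.249088, so they are not counted as separate readings. Each difference was more than 1 such SD, and between 7.92% and 12.0% of probe sets of similar level were at least as high. The transcripts listed for these probe sets belong to HLA-F and not to HLA-B. A related sequence, the class I pseudogene HLA-L, had values of 7.00 with and 6.52 without doxycycline, a difference of 0.48 that both of its probe sets gave with identical values.

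The 250 bases before the RefSeq starts of these 3 heavy chain genes are printed to show how alike the sequences are and where their interferon element lies (GRCh38.p14, minus strand for HLA-B at chr6:31357180-31357429 and HLA-C at chr6:31272093-31272342, plus strand for HLA-F at chr6:29723184-29723433). Capitals mark matches on either strand to GAAANNGAA, the core to which interferon regulatory factors bind, and to TTTCACTTC, the form of that element in HLA-B and HLA-C. They also mark matches to GGGNNTTNC, the letters of an NF-kB site, and to CCAAT, the letters of a CCAAT box, to which NF-Y can bind.
HLA-B: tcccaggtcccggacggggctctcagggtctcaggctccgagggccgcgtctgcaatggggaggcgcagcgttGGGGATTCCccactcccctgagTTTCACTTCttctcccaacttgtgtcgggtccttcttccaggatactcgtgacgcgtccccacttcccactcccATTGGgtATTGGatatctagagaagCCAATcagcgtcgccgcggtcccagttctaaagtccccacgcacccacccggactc
HLA-C: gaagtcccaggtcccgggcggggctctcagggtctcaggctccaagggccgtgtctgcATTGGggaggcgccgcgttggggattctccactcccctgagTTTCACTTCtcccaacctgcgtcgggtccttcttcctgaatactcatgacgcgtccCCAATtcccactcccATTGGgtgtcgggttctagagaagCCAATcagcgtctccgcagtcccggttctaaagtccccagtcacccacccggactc
HLA-F: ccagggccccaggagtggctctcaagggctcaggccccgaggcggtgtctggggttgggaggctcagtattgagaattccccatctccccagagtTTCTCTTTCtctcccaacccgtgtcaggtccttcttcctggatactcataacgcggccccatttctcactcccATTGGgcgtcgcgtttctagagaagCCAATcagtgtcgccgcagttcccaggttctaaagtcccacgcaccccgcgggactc
Aligned end to end, HLA-B and HLA-C were identical at 89.0% of columns, HLA-B and HLA-F at 80.4% and HLA-C and HLA-F at 78.2%. The other 18 pairs among the 7 genes lay between 41.2% and 49.2%. TTTCACTTC begins 155 bases before the start in HLA-B and 151 in HLA-C, and TTCTCTTTC, a match to the reverse complement of GAAANNGAA, also begins 155 bases before it in HLA-F. The NF-kB letters were matched in HLA-B and in neither HLA-C nor HLA-F. The sequences are those of the reference and not of K562.

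B2M, the light chain gene shared by all class I molecules, was nearly level. Its single probe set had values of 10.41 with and 10.36 without doxycycline, a difference of 0.05 or 1.04-fold. The robust SD at this level was 0.12, and 32.8% of probe sets of similar level were at least as high. It is the only member outside the major histocompatibility complex (MHC) on chromosome 6, and lies on chromosome 15.

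The subunit genes of the peptide transporter differed in opposite directions, both by small amounts. TAP1 stood at 8.09 with doxycycline and 7.85 without in each of its 3 probe sets, whose values were identical and count as 1 measurement. The difference was 0.24, or 1.18-fold, and 7.63% of probe sets of similar level were at least as high. TAP2 stood at 8.38, 8.42 and 8.40 with doxycycline in its 3 probe sets and at 8.46, 8.51 and 8.49 without. Within each probe set of TAP2 the doxycycline value was the lower. The values of the third (8180034), 8.4012 and 8.4867, equal the mean over the 3 in each sample, so it is not counted as a separate reading. The differences were -0.08, -0.09 and -0.09, where the robust SD was 0.14 to 0.15, and 26.1%, 23.9% and 25.0% of probe sets of similar level were at least as low. TAP2 therefore stayed within the common spread between probe sets, and TAP1, with a robust SD of 0.14, lay beyond 1 such SD.

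TAPBP, the tapasin gene, was higher in all 3 probe sets. The values with and without doxycycline were 8.81 and 8.65 (8125713), 9.91 and 9.68 (8178977), and 10.06 and 9.84 (8180166). The differences were 0.16, 0.23 and 0.21. The robust SD was 0.15 at the level of the first and 0.13 at the level of the others, and 14.3%, 5.57% and 6.70% of probe sets of similar level were at least as high. Within each probe set the doxycycline value was again the higher.

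**Figure D2:**
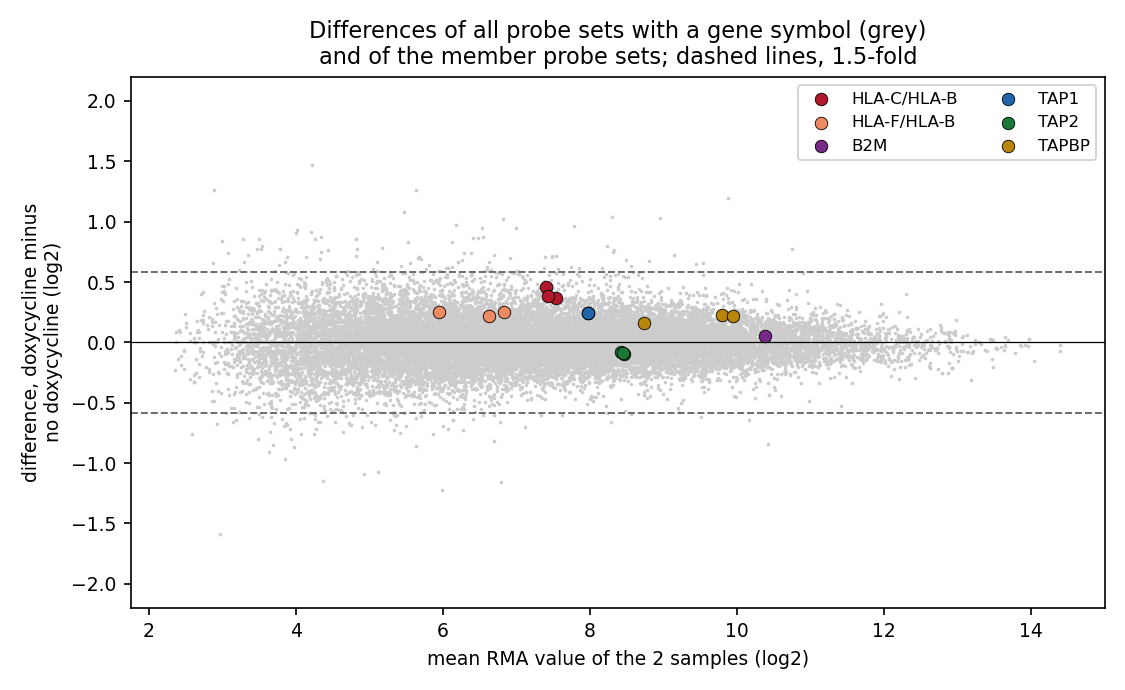
Difference between the samples (log2, vertical axis) against the mean of both (log2, horizontal axis) for all 21214 probe sets with a gene symbol (grey) and for the 16 members (colours by gene symbols); dashed lines mark 1.5-fold. The HLA-B and HLA-C probe sets lie highest among the members, between 0.36 and 0.46 and toward the upper edge of the grey cloud. B2M and TAP2 lie nearest to 0, and no member crosses a dashed line.

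The starts of TAP1 and TAP2, whose products form the transporter, are printed next (GRCh38.p14, minus strand, chr6:32853705-32853954 and chr6:32838740-32838989, the same 250 bases and the same capitals).
TAP1: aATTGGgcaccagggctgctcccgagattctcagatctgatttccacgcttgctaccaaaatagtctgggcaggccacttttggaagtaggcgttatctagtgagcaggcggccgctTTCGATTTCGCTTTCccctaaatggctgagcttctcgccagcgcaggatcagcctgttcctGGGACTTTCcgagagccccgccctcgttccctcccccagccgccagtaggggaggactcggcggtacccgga
TAP2: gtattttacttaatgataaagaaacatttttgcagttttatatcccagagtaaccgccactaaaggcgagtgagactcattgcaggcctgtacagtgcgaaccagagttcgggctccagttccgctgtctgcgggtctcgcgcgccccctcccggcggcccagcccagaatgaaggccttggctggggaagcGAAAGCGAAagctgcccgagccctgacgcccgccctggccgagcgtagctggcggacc
TAP1 holds a pair of overlapping matches to GAAANNGAA, which begin 133 and 127 bases before its start, and the NF-kB letters GGGACTTTC. TAP2 holds GAAAGCGAA, which begins 58 bases before its start, and no match to the NF-kB or CCAAT letters in this window. TAPBP and B2M each hold overlapping pairs of GAAANNGAA, and both match the NF-kB letters. In all, 5 of the 7 windows match GAAANNGAA and the other two, HLA-B and HLA-C, match TTTCACTTC, while 6.88% and 0.439% of all 35116 promoter windows of this length do. NF-kB letters were matched in 4 of 7 and in 14.2% of all windows, and CCAAT in 5 of 7 and in 32.0% of all. These matches were chosen knowing the family's biology and its sequences and are a description of letters. Whether they play a part in the differences was not tested.

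Genes that lie beside the transporter were read next. In RefSeq order TAP2, PSMB8, PSMB8-AS1, TAP1 and PSMB9 follow each other. PSMB9 encodes an immunoproteasome subunit, shares its start region with TAP1, and had values of 7.72 with and 7.33 without doxycycline, a difference of 0.39 or 1.31-fold. Its 3 probe sets held identical values, and 2.83% of probe sets of similar level were at least as high. PSMB8, the immunoproteasome subunit next to TAP2, stood at 6.24 and 6.15, a difference of 0.09. Both genes of the TAP1 and PSMB9 pair were therefore higher by more than 1 robust SD (0.14 and 0.16), and TAP2 and PSMB8 were within it (0.19 for PSMB8).

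Other genes of the MHC region split evenly. RefSeq places 285 other genes between HLA-F and TAPBP, of which 113 had a probe set with 1 symbol and 102 passed the floor. Of these 102, 50 were higher, with a median difference of 0, where 50.3% of the 13471 genes past the floor were higher, with a median of 0.00177. At 1.2-fold 6 were higher and 2 lower, against 6.04% and 4.05% of all genes. HLA-L and PSMB9 were among the 6. The widest differences, chosen after the values were seen, were those of HCG9, a non-coding gene, at 0.70, and LY6G6F, an immunoglobulin superfamily gene, at -0.47. HCG9 was dim, at 6.01 with and 5.31 without doxycycline, and passed the floor only with doxycycline.

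**Figure D3:**
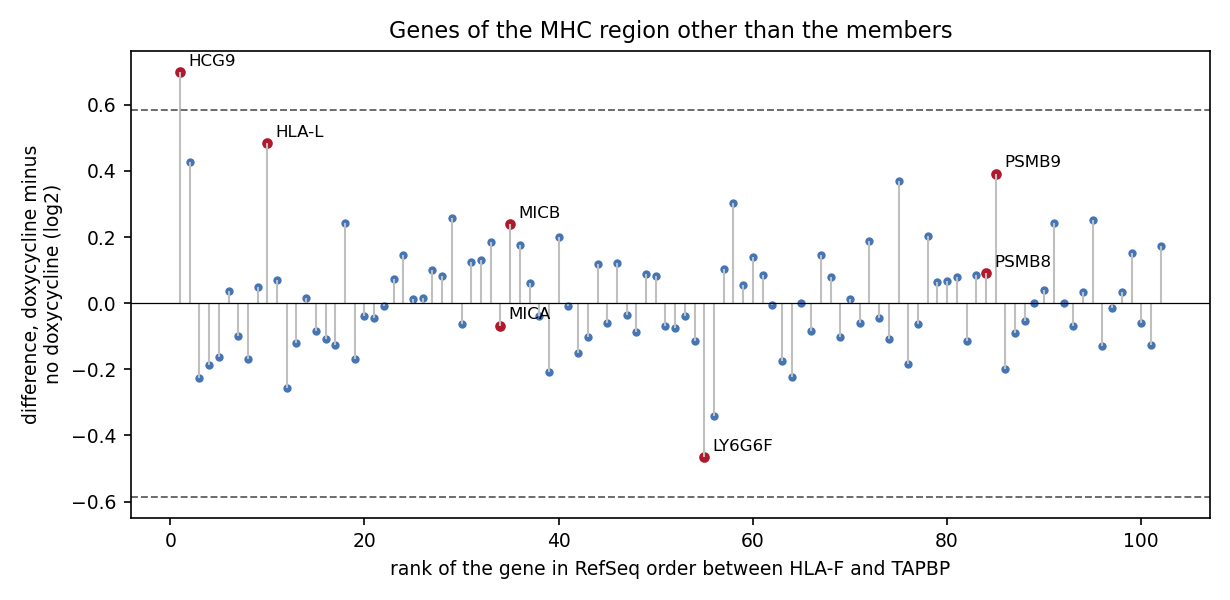
Difference (log2) of the 102 genes of the MHC region past the floor, other than the members, in RefSeq order from HLA-F to TAPBP; dashed lines mark 1.5-fold and red points carry names. Points scatter on both sides of 0 along the whole region, with HCG9 alone past a dashed line, at 0.70, a dim gene that passed the floor only with doxycycline.

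Other genes of the presentation pathway and genes around it, among them interferon and PRC2 genes, were described through 10 lists. These lists held 137 genes, of which 104 passed the floor. Of the 104, 61 were higher, with a median difference of 0.03, where 50.3% of all genes past the floor were higher. The same 50.3% stands beside the counts of higher genes in each list below. At 1.5-fold 2 were higher and 0 lower, where 0.364% and 0.111% of all genes past the floor were. At 1.2-fold 12 were higher and 0 lower, where 6.04% and 4.05% of all genes past the floor were. Of the 12, 2 passed the floor only with doxycycline, TAPBPL and IFIT3.

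Among loading co-chaperones and peptide-trimming enzymes, 8 of 13 were higher, with a median of 0.01. ERAP1, which trims peptides in the endoplasmic reticulum, had values of 9.52 with and 9.15 without doxycycline, a difference of 0.37 that 0.943% of probe sets of similar level reached. TAPBPL, a tapasin relative that edits peptides on class I, differed by 0.38 but was dim, at 6.30 and 5.91, and passed the floor only with doxycycline. Calreticulin (CALR), a chaperone of the loading complex, differed by -0.10, the cytosolic peptidase THOP1 by -0.16 and the peptidase NRDC by 0.11. PDIA3 and CD74 were not analysed here. Among proteasome subunits, their activators and an assembly factor, 5 of 10 were higher, with a median of 0.01. Besides PSMB9, the activator subunit PSME1 differed by 0.19, the immunoproteasome subunit PSMB10 by -0.21 and the nuclear activator PSME3 by -0.13.

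Genes that control class I transcription had a median of 0.01, with 9 of 15 higher, where 50.3% of all genes past the floor were. None reached 1.2-fold (0 higher and 0 lower), against 6.04% and 4.05% of all genes. With shares this small, a count of 0 among 15 says little. NLRC5, the class I transactivator, was dim, at 6.37 with doxycycline and 6.46 without. RFX5, the DNA-binding subunit of the complex NLRC5 joins, differed by 0.22, its partner RFXAP by 0.14, the interferon regulatory factor IRF1 by 0.15 and the class II transactivator CIITA by -0.15. PRC2 subunits had a median of 0.02 over 11 genes, with JARID2 at 0.20, AEBP2 at 0.13, MTF2 at 0.13 and SUZ12 at -0.08. Interferon receptors and their signalling genes had a median of 0.03 with 6 of 11 higher. IFNGR1, the ligand-binding chain of the interferon gamma receptor, stood at 9.32 and 9.02, a difference of 0.31, while JAK2 differed by 0.18, IFNAR1 by 0.14 and the feedback inhibitor SOCS3 by -0.19.

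Interferon-induced genes were the list with several members whose median lay closest to that of the class I genes. Of 10 past the floor, 7 were higher, with a median of 0.20, where 50.3% of all genes past the floor were higher. At 1.2-fold 4 were higher and 0 lower, against 6.04% and 4.05% of all genes. Without IFIT3, a count added once the values were known, 6 of 9 were higher and 3 reached 1.2-fold, with a median of 0.20. GBP2, an interferon-induced GTPase, had values of 7.31 with and 6.72 without doxycycline, a difference of 0.59 or 1.51-fold, but its other probe set differed by 0.19. IFIT3 differed by 0.48 and passed the floor only with doxycycline, IFI6 differed by 0.40 and IFI35 by 0.28. The 3 lower genes were IFI27 at -0.20, BST2 at -0.14 and IRF7 at -0.11. Only 10 of the 17 genes passed, so the count leaves out the 6 that were dimmer and the 1 with no probe set of its own.

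**Figure D4:**
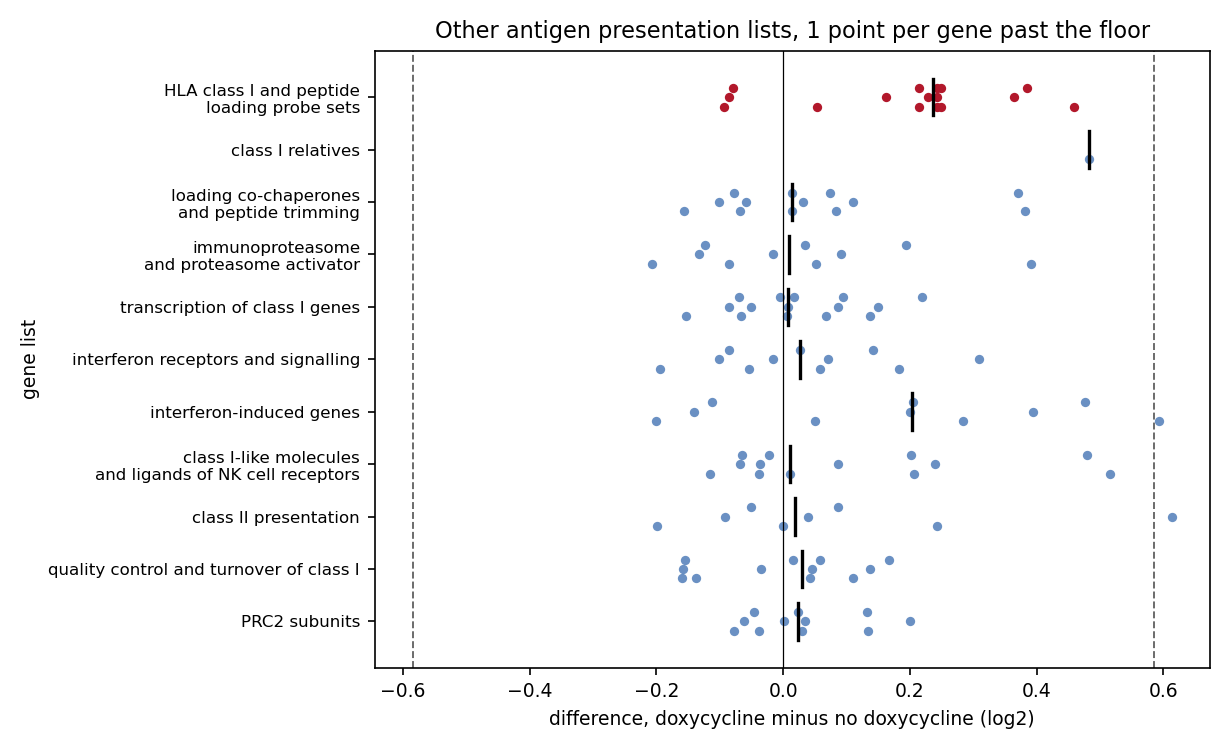
Difference (log2, horizontal axis) of each gene past the floor in the 10 lists (blue) and of the 16 member probe sets (red), with the median of each row as a black bar and 1.5-fold as dashed lines. The member median lies at 0.24 and that of interferon-induced genes at 0.20, the single class I relative is HLA-L at 0.48, and the medians of the other 8 lists lie between 0.01 and 0.03.

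Class I-like molecules and ligands of NK cell receptors split, with 7 of 13 higher and a median of 0.01. MR1, which presents vitamin B metabolites to T cells, had values of 8.53 with and 8.02 without doxycycline, a difference of 0.52. ULBP1, a ligand of the activating NK receptor NKG2D, stood at 8.63 and 8.15, a difference of 0.48. Of probe sets of similar level, 1.04% and 1.23% were at least as high as these. MICB, a further NKG2D ligand in the MHC, differed by 0.24 and by 0.19 at its other probe set, and RAET1L by 0.21. Class II genes had a median of 0.02 over 8. CTSS, a lysosomal protease that cleaves the invariant chain of class II, stood at 8.16 and 7.55, a difference of 0.61 or 1.53-fold. HLA-DPB1 differed by 0.24, with 0.24 to 0.26 over its 3 probe sets, while HLA-DMB differed by -0.20 and HLA-DMA by -0.09. Genes for the quality control and turnover of class I had a median of 0.03 over 12, with MARCHF9 at 0.17 and SYVN1, UBE2J2 and DERL2 each at -0.16.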

How the data were processed

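Total RNA of 2 K562 cultures was labelled with biotin and measured on 1 array each. Per the submitters' processing notes, the authors ran RMA in Affymetrix Expression Console 1.1.1, and the deposited values are on a log2 scale. RMA removes background, equalises the distributions of arrays and summarises probes, which removes any shift common to all genes and shrinks differences of dim probe sets. The log base is not labelled and was inferred from RMA's convention and from values between 1.61 and 14.6. The design text names another array type than the probe set numbers and platform annotation, which were followed here.

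Symbols came from the platform annotation, updated by Entrez ID to RefSeq (GRCh38.p14). A list gene took its brightest probe set with 1 symbol and needed a value of 6 in either sample (the floor). Members were kept at any level. The robust SD is 1.4826 times the median absolute deviation within 1 of 20 bins of mean level. Named were all members, up to 4 genes of each list with the widest difference, and BMI1, NLRC5, PSMB8, PSMB9, CALR, PDIA3 and CD74. HCG9, LY6G6F, HLA-DQB1, MICA (in a figure), IFI27, BST2, IRF7 and the markers MS4A1, CD7 and HBZ were chosen after their values were seen. Members and lists were chosen with earlier results of these data known. No test was made, with 1 sample per group. Promoter windows came from RefSeq, and 7 of 7 measured members matched. Counting was tested on simulated data. Python 3.11.15, numpy 2.4.6, pandas 2.3.3, statsmodels 0.14.6 and biopython 1.88 were used.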

Additional observations from a re-analysis of the deposited data

How the results depend on the processing

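No paired analysis was possible because each group held 1 sample. The differences of the 16 member probe sets kept their direction under centring of each sample on its median, subtraction of a loess trend and quantile normalization, and moved by -0.0113 to 0.03. The median over the member probe sets lay between 0.19 (probe sets with several symbols left out) and 0.25 over 9 alternatives, among them floors of 6 and 7, the mean or the brightest probe set per member, and identical probe sets counted once, the last added after seeing the data. The count of members at least 1.5-fold higher, 0, became 3 with a fold size of 1.2, all of them HLA-B and HLA-C probe sets. It could only stay at 0 for a fold size of 2, without probe sets of several symbols, and with a floor of 6, which all 16 pass in at least 1 sample. That floor could not change the median either. After centring and after quantile normalization the count was also 0, with the small shifts given above. Of the genes in the other lists, 2 were at least 1.5-fold higher, and 1 when all probe sets of a gene were averaged, since GBP2 then fell below that size. No depth is known for arrays, and the HLA-F probe sets and several interferon-induced genes lay near the floor. The robust SD at the level of the HLA-F probe sets, 0.17 to 0.21, was the widest among the members. No left-out sample could be tried with 1 sample per group.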

Other observations

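HLA class II probe sets that carry several symbols stood outside the lists. Of 15 such probe sets, 3 passed the floor of 6 and 12 lay under it in both samples. With doxycycline 10 of the 15 were higher, where 49% of all probe sets with a symbol were, with a median difference of 0.09 and a range from -0.23 to 0.44. The highest, annotated to HLA-DQA2 and HLA-DQA1, stood at 7.04 with doxycycline and 6.61 without, and 2 of its probe sets (8178199 and 8179489) held identical values. A further probe set of the same symbols (8118564) differed by 0.11, at 5.72 and 5.62, so the size of the difference was not shared. The probe set of HLA-DQB1 alone differed by 0.58 but was dim in both samples, at 4.97 and 4.39. Over all 21214 probe sets with a symbol, 779 (3.67%) shared both of their values with another probe set, as the 3 TAP1 probe sets did.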
